A study of Mus musculus with 10 samples.

Results

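The thrombospondins, CCN proteins and other matricellular genes followed here were 10 genes chosen by symbol: Thbs1, Thbs2, Thbs3 and Thbs4, the CCN family members Ccn2 and Ccn5, and the matrix genes Postn, Tnc, Sparc and Cilp. All 10 were found among the 55385 genes of the table, and all 10 passed the filter on low counts that left 18491 genes to test. The samples were left ventricles of mice labelled C56Bl6. In the Control group, 5 libraries came from animals on a standard diet for 6 weeks. In the HFpEF group, 5 libraries came from animals given a high-fat diet together with L-NAME for 6 weeks. L-NAME blocks nitric oxide synthase, and the combination is used as a model of heart failure with preserved ejection fraction (HFpEF). The groups differ in diet and drug at once, and the effects of these cannot be told apart. The sources used here do not state sex, age or how many animals lie behind a library, so the p-values reflect only library-to-library spread, which may be technical.

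Matricellular proteins are secreted into the extracellular matrix but do not form its main scaffold; they bind collagens, growth factors and cell surface receptors and so alter how cells read the matrix. Most are scarce in the healthy adult heart and are known to appear after infarction or pressure overload, made largely by fibroblasts and also by vascular, inflammatory and muscle cells. Thrombospondin 1 restrains angiogenesis through the receptors CD36 and CD47 and can release active TGF-beta from its latent complex. CCN2, long known as connective tissue growth factor, is a pro-fibrotic factor, and CCN5, which lacks the C-terminal domain of the other CCN proteins, has often been described as its antagonist.

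Thbs1 rose and Ccn5 fell in HFpEF, each with no overlap between the groups. Thbs2 fell slightly, in a call that held in only 2 of 10 fits with 1 library dropped. Levels are given as CPM, that is, counts relative to each library's TMM-scaled total. Changes are log2 fold changes of HFpEF relative to Control with standard errors (SE), and both they and their p-values come from the quasi-likelihood test of edgeR, adjusted by the Benjamini-Hochberg method across the table. At an adjusted p below 0.05, 1 of the 10 genes was higher, 2 were lower and 7 were not called. Among all genes tested 3.24% were called higher and 2.09% lower, 5.33% in all. Unadjusted p-values were below 0.05 for 3 of the 10 genes (20.5% of all genes). The 10 log2 fold changes had a median of 0.06, with 5 above and 5 below 0, beside a median of -0.01 over all genes. In bulk tissue, fewer cells of a type and less RNA per cell cannot be told apart.

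**Figure D1:**
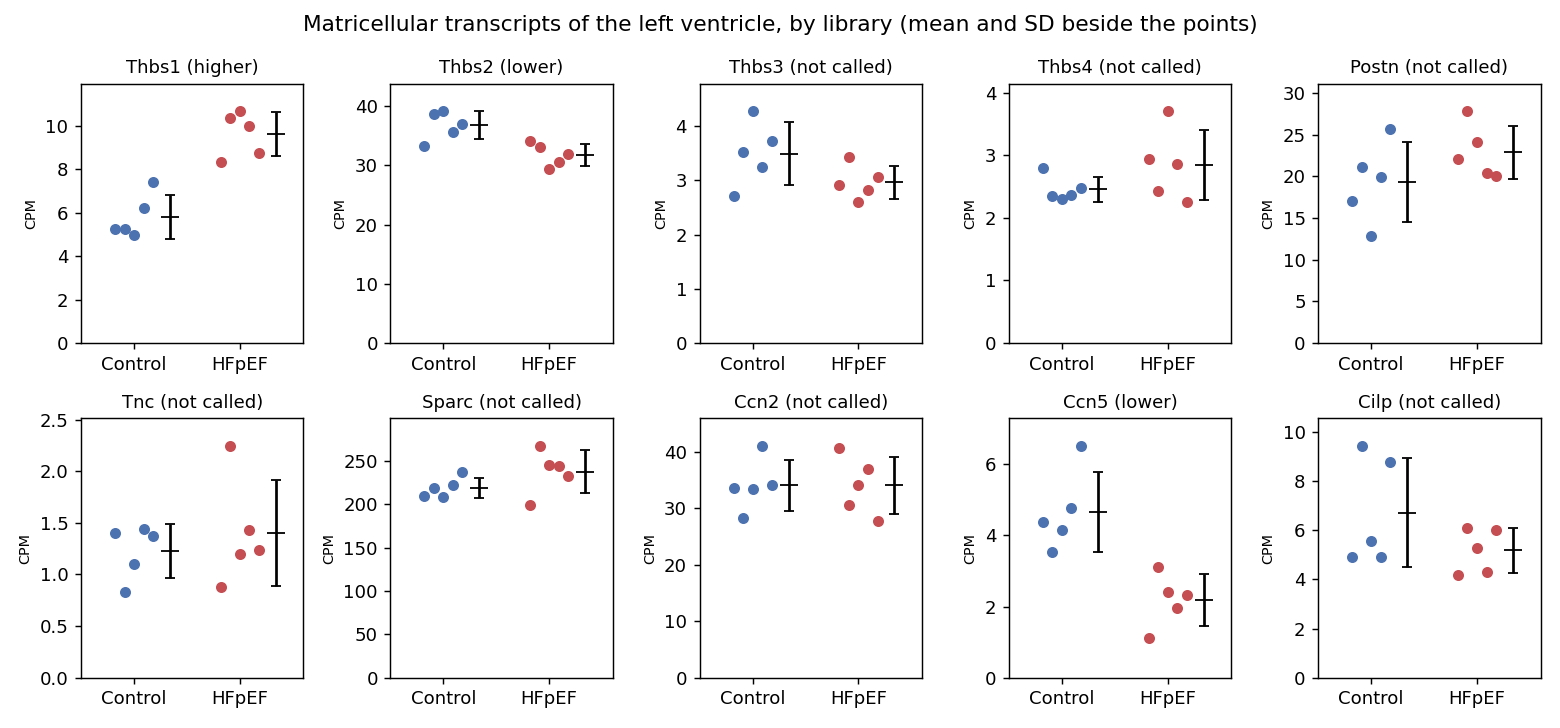
CPM of each of the 10 genes in 5 Control (blue) and 5 HFpEF (red) libraries, 1 point a library in replicate order, with the group mean and SD as a black bar; each panel has its own axis from 0. The groups separate for Thbs1 (4.97 to 7.41 against 8.36 to 10.7 CPM) and Ccn5 (3.52 to 6.51 against 1.13 to 3.12 CPM) and overlap in the other 8 panels.

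The thrombospondins form subgroups by their assembly, Thbs1 and Thbs2 as trimers and Thbs3 and Thbs4 as pentamers. Coding sequences of the GENCODE M21 annotation (build mm10) follow this division. Thbs1 and Thbs2 were identical at 69.0% of their aligned bases and Thbs3 and Thbs4 at 69.1%, while pairs across the subgroups were identical at 63.9% to 65.3%. Thbs1 and Thbs2 encode 1171 and 1172 residues, Thbs3 and Thbs4 956 and 963. The 2 trimeric members differ at a site tied to their biology, the tetrapeptide through which thrombospondin 1 activates latent TGF-beta. It was found once in the Thbs1 reading frame and 0 times in that of Thbs2. The coding stretches are shown because Thbs1 and Thbs2 moved in opposite directions, and any link of these changes with the site was not tested. Capitals mark the 12 bases of the tetrapeptide in Thbs1 and the bases aligned to them in Thbs2. The genes are identical at 5 of these 12, against 40 of 60 over the whole stretch.
Thbs1: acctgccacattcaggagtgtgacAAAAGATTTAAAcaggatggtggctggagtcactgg
Thbs2: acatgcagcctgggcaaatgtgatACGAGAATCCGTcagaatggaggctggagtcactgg
Both stretches lie in exons 8 and 9 and cross the junction between them, on the plus strand of chromosome 2 between 118117627 and 118118190 for Thbs1 and on the minus strand of chromosome 17 between 14681387 and 14681695 for Thbs2.

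Thbs1 (ENSMUSG00000040152.8; a coding gene on the plus strand of chromosome 2, 118111876 to 118127133 in mm10) stood in Control 1 to 5 at 5.27, 5.24, 4.97, 6.21 and 7.41 CPM. In HFpEF 1 to 5 it stood at 8.36, 10.4, 10.7, 10.03 and 8.75 CPM. Every HFpEF library lay above every Control library, as was true of 3.88% of all genes tested, and the nearest pair was HFpEF 1 and Control 5. The rise was 1.64-fold (95% interval 1.40 to 1.93), a log2 fold change of 0.72 ± 0.11 (SE, 5 libraries a group; edgeR adjusted p = 0.00163). Dropping any single library did not end the call (adjusted p up to 0.00676). Exons of an opposite-strand gene cover 3.43% of its exonic bases.

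Thbs2 (ENSMUSG00000023885.9; chromosome 17, 14665500 to 14694235, minus strand), whose loss in mice is known to disturb collagen fibrils, was more abundant than Thbs1. It stood in Control 1 to 5 at 33.4, 38.7, 39.1, 35.7 and 37.0 CPM and in HFpEF 1 to 5 at 34.1, 33.1, 29.5, 30.5 and 31.9 CPM. Control 1 lay below HFpEF 1, and the other 4 HFpEF libraries were below all Control libraries. The log2 fold change was -0.21 ± 0.06 (SE, 5 libraries a group; edgeR adjusted p = 0.0408). With 1 library dropped at a time the call held for Control 1 and for HFpEF 1, while dropping any of the remaining 8 ended it (adjusted p up to 0.113). It also ended with limma-voom (0.0525).

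Thbs3 and Thbs4, the pentameric members, were low and were not called. Thbs3 (chromosome 3, 89215180 to 89226837) stood at 2.71, 3.52, 4.27, 3.25 and 3.72 CPM in Control and at 2.91, 3.43, 2.60, 2.83 and 3.06 CPM in HFpEF, and the groups overlapped. Its log2 fold change was -0.24, with a 95% interval from -0.50 to 0.03, and the opposite-strand gene Mtx1 shares 6.59% of its exonic bases. Thbs4, known for its part in the stress response of heart muscle and as a tendon gene (chromosome 13, 92751590 to 92794818), stood at 2.80, 2.34, 2.29, 2.37 and 2.47 CPM in Control. In HFpEF it stood at 2.94, 2.43, 3.70, 2.86 and 2.26 CPM, with HFpEF 3 highest and HFpEF 5 below all Control libraries. Its log2 fold change was 0.21, with a 95% interval from -0.07 to 0.49, which includes a rise of 1.41-fold.

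**Figure D2:**
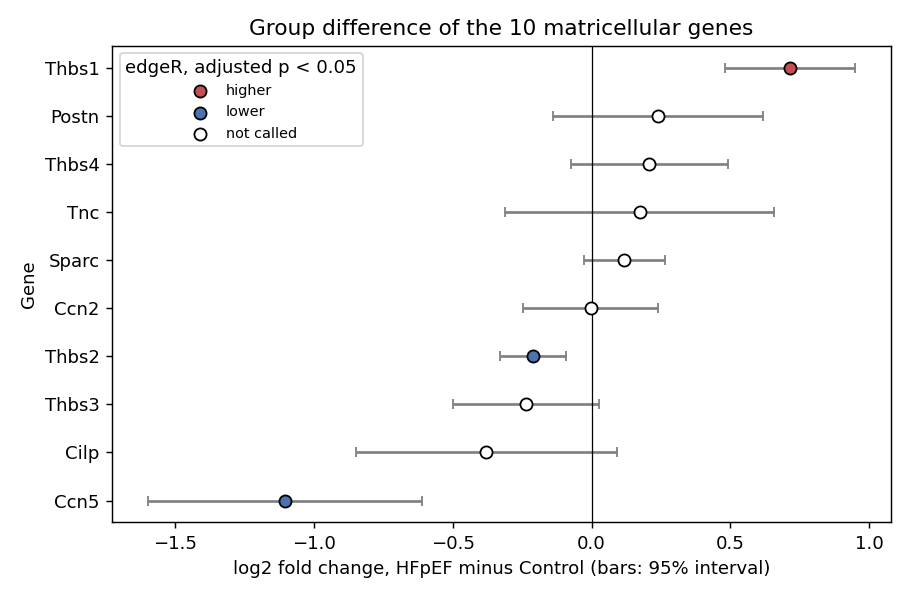
Log2 fold change (HFpEF minus Control, horizontal axis) of the 10 genes with 95% intervals as bars; red was called higher, blue lower and white not called by edgeR. Thbs1 is at 0.72, Thbs2 at -0.21 and Ccn5 at -1.10, while the intervals of the other 7 cross 0.

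The CCN pair divided. Ccn5 (ENSMUSG00000027656.7; chromosome 2, 163820861 to 163833146, plus strand) had the largest fold change of the 10. It stood in Control 1 to 5 at 4.37, 3.52, 4.15, 4.76 and 6.51 CPM. In HFpEF 1 to 5 it stood at 1.13, 3.12, 2.40, 1.97 and 2.32 CPM, and HFpEF 1 was lowest, with 36 counts. All HFpEF libraries lay below all Control libraries, which 2.93% of all genes did. Ccn5 in HFpEF was 0.465 of its Control level (95% interval 0.331 to 0.654), a log2 fold change of -1.10 ± 0.23 (SE, 5 libraries a group; edgeR adjusted p = 0.0154). Dropping any single library kept the call (adjusted p up to 0.0478). It was lost when Control 4 and Control 5, the deepest libraries and the highest for Ccn5, were both dropped (-0.87, adjusted p = 0.0595), and with no filter on low counts (-1.10, adjusted p = 0.0641).

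Ccn2 (ENSMUSG00000019997.11; chromosome 10, 24595442 to 24598683, plus strand) showed no detectable difference. It stood in Control 1 to 5 at 33.5, 28.3, 33.4, 41.0 and 34.1 CPM and in HFpEF 1 to 5 at 40.7, 30.6, 34.2, 36.9 and 27.7 CPM. High and low libraries occurred in both groups. The 95% interval of its fold change ran from 0.843 to 1.18 (log2 fold change -0.0035 ± 0.11, edgeR adjusted p = 0.992). With RLE scaling and with DESeq2 the value lay just above 0. An opposite-strand gene overlaps 23.2% of the exonic bases of Ccn2; the sources used here do not say if strand was used in counting, so reads of the 2 genes may not be separable.

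The difference between the 2 CCN genes was itself tested. Ccn2 exceeded Ccn5 by 2.87 ± 0.28 in log2 CPM in Control and by 3.98 ± 0.71 in HFpEF (SD, n = 5), a widening of 1.11 (exact permutation test, two-sided p = 0.00794, the smallest the design allows; adjusted p = 0.0132 over 10 differences tested). The coding sequences were identical at 62.4% of aligned bases, and Ccn5 encodes 251 residues against 348 in Ccn2. The stretch around the cysteine motif of the IGF-binding-protein-like domain is shown because it is among the parts that the proteins share; capitals mark the bases that encode the motif, identical at 19 of 24, against 49 of 72 over the stretch.
Ccn2: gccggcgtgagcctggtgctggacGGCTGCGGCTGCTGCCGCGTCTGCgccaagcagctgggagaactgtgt
Ccn5: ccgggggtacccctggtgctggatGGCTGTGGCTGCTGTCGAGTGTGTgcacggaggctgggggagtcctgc
They lie in exon 2 of Ccn2 (chromosome 10, 24595942 to 24596013) and exon 3 of Ccn5 (chromosome 2, 163825201 to 163825272), both on the plus strand.

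Postn, Tnc, Sparc and Cilp were not called. Postn encodes periostin, a mark of activated fibroblasts, and stood at 17.0, 21.1, 12.8, 19.9 and 25.7 CPM in Control and at 22.1, 27.8, 24.1, 20.4 and 20.03 CPM in HFpEF. Control 3 was the lowest library, and the groups overlapped; the log2 fold change was 0.24, with a 95% interval from -0.14 to 0.62. Tnc encodes tenascin C, an early marker of cardiac remodelling, and was the scarcest of the 10, with 28 to 72 counts a library. It stood at 1.40, 0.829, 1.10, 1.45 and 1.37 CPM in Control and at 0.876, 2.24, 1.201, 1.43 and 1.24 CPM in HFpEF, where HFpEF 2 was above all other libraries. Its log2 fold change was 0.17 with all libraries and -0.065 without HFpEF 2.

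Sparc, which encodes a collagen-binding protein needed for collagen maturation, was the most abundant. It stood at 209, 219, 209, 222 and 237 CPM in Control and at 199, 267, 245, 245 and 232 CPM in HFpEF. HFpEF 1 was the lowest of all 10 libraries and HFpEF 2, 3 and 4 the highest, and the log2 fold change was 0.12 (95% interval -0.03 to 0.26). Cilp, whose product binds TGF-beta and which is known to rise in the scarred heart, stood at 4.91, 9.42, 5.56, 4.92 and 8.78 CPM in Control. In HFpEF it stood at 4.19, 6.08, 5.29, 4.30 and 6.03 CPM. Control 2 and Control 5 were above the rest, and the log2 fold change was -0.38, with a 95% interval from -0.85 to 0.09.

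**Figure D3:**
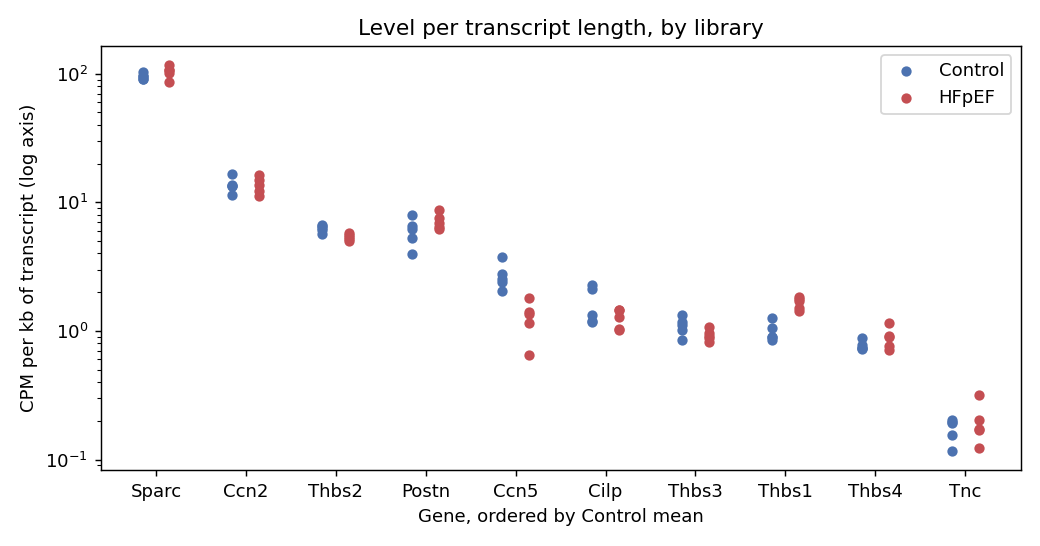
CPM per kb of transcript (log axis) for each gene in 5 Control (blue) and 5 HFpEF (red) libraries, in the order of the Control means. Sparc stands above all others at 95.3 and Tnc below all others at 0.173 in Control, and Thbs1 is higher and Ccn5 lower in HFpEF.

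Levels were set against each other per length, as CPM per kb of the longest protein-coding transcript. In Control the order was Sparc (95.3 ± 5.06), Ccn2 (13.7 ± 1.82), Thbs2 (6.24 ± 0.401), Postn (6.02 ± 1.49), Ccn5 (2.71 ± 0.655), Cilp (1.62 ± 0.530), Thbs3 (1.10 ± 0.181), Thbs1 (0.995 ± 0.172), Thbs4 (0.767 ± 0.0631) and Tnc (0.173 ± 0.0368; SD, n = 5). The Control ranges of Thbs2 and Postn overlapped, as did those of Ccn5 and Cilp, Cilp and Thbs3, Thbs3 and Thbs1, and Thbs1 and Thbs4. On this scale Thbs1 stood at 1.65 ± 0.175 in HFpEF, with every library above those of Thbs3 (0.929 ± 0.0967), whereas the ranges overlapped with Cilp (1.25 ± 0.218) and Ccn5 (1.27 ± 0.422). The annotated exons cover 8702 bases for Postn, 4823 for Thbs3 and 3788 for Sparc, against 3205, 3190 and 2300 in the transcripts used. Their levels per exonic base would be lower, and the order of genes with close levels could change.

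Since a call in one gene and not in another does not show that they differ, Thbs1 was compared with each other gene within libraries. Its log2 CPM relative to Thbs2 was -2.66 ± 0.26 in Control and -1.72 ± 0.22 in HFpEF (SD, n = 5), a shift of 0.94. The shift was 0.96 relative to Thbs3, 0.54 to Thbs4, 0.46 to Postn, 0.59 to Tnc, 0.62 to Sparc, 0.74 to Ccn2, 1.06 to Cilp and 1.85 to Ccn5. Thbs1 enters all 9 shifts and had the highest log2 fold change of the 10 genes. Shifts above 0 therefore largely follow from its rise, and the 9 tests are not independent. All 9 shifts passed over the 10 differences tested (exact permutation tests, two-sided, adjusted p = 0.0132 to 0.0397). That against Tnc ended without any 1 of 7 libraries: Control 1, 3 or 4 or HFpEF 1, 3, 4 or 5 (adjusted p up to 0.0794). That against Thbs4 ended without Control 1 or Control 3 (0.0529 for both).

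**Figure D4:**
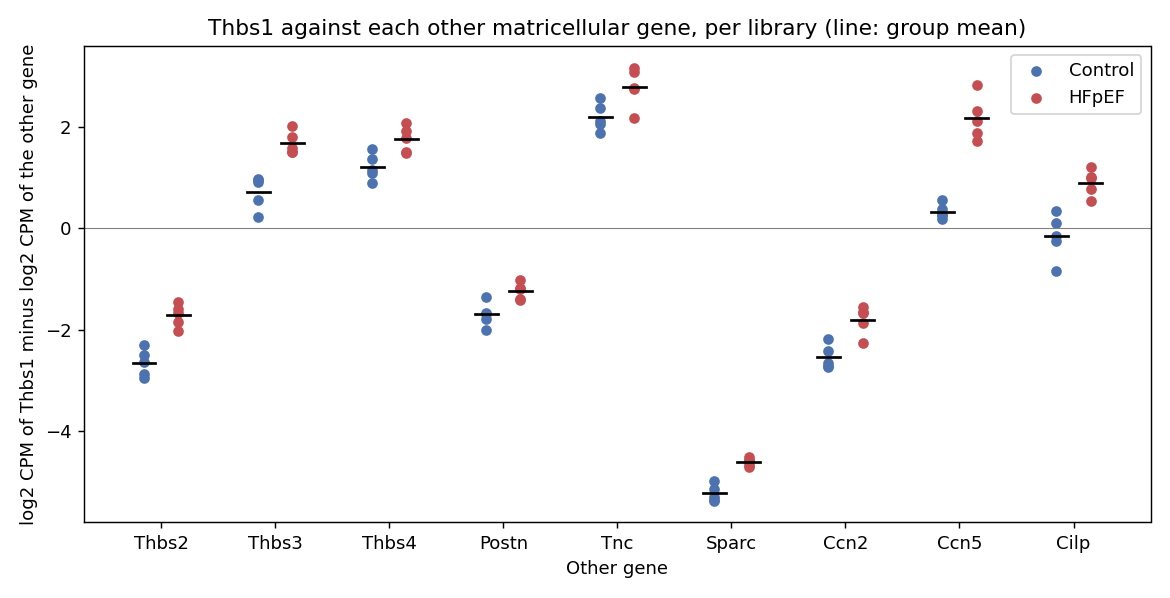
Log2 CPM of Thbs1 minus that of each other gene (vertical axis) in 5 Control (blue) and 5 HFpEF (red) libraries, with a line at each group mean. The HFpEF mean is above the Control mean for all 9 genes, by 0.46 (Postn) to 1.85 (Ccn5). Thbs1 enters every difference, so these are not independent.

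How the genes varied among libraries of one group was examined with deviations from the group means, over the 45 pairs and each gene's relation to the mean level of 8 fibroblast markers. Of these 55 relations 13 had an unadjusted exact p below 0.05 and 0 passed the adjustment. The smallest p was that of Thbs1 with Sparc (Pearson r = 0.77, exact permutation p = 0.00118, adjusted 0.0649; Spearman rho = 0.89, exact p = 0.00132, adjusted 0.0726; n = 10). Without the 2 libraries farthest from the median of Thbs1, r was 0.78, and it was 0.94 in Control and 0.86 in HFpEF. The largest r of the 55 was that of Sparc with Ccn5 (0.90, exact permutation p = 0.00597, adjusted 0.0704, and 0.63 without 2 libraries). Among Control libraries, Thbs1, Sparc and Ccn5 were each highest in Control 5 and next in Control 4, the 2 deepest libraries. The part of depth in the relations among these genes was not tested. Thbs1 and Ccn5, which moved in opposite directions between the groups, had an r of 0.73 within them (exact p = 0.00792, adjusted 0.0704; rho = 0.84, exact p = 0.00451, adjusted 0.0828; r = 0.65 without 2 libraries). Other relations at an adjusted p of 0.0704 (exact permutation tests) included some below 0. Ccn2 with Cilp had an r of -0.73 (-0.68 without 2 libraries) and Thbs3 with Thbs4 of -0.67 (-0.73). Thbs2 with Thbs3 had an r of 0.82 (0.57 without 2 libraries). Between Postn and the fibroblast markers r was 0.89 (exact p = 0.00313, adjusted 0.0704, and 0.68 without 2 libraries). The rho of this relation was 0.87 (exact p = 0.00264, adjusted 0.0726). Thbs1 had an r of 0.76 with the same markers (exact p = 0.0266, adjusted 0.146; rho = 0.66, exact p = 0.0700, adjusted 0.312; r = 0.49 without 2 libraries, 0.81 in Control and 0.79 in HFpEF).

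Of 26 further matricellular genes 19 were tested; 3 rose, 0 fell and 16 were not called, with a median log2 fold change of 0.05. For this and the other lists, the shares among all genes were 5.33% called and 20.5% at an unadjusted p below 0.05, the latter met by 5 of these 19. Ccn1, an immediate target of growth factors and stretch, rose from 23.5 ± 2.88 to 29.5 ± 1.48 CPM (SD, n = 5; 0.33 ± 0.07, edgeR adjusted p = 0.0163), and the ranges did not overlap (20.4 to 27.5 against 27.8 to 31.3 CPM). Smoc2, a relative of Sparc, rose by 0.34 ± 0.07 (edgeR adjusted p = 0.0118), and its ranges also did not overlap (20.02 to 25.8 against 27.8 to 33.7 CPM). Sparcl1, the closest relative of Sparc, rose by 0.18 ± 0.04 (edgeR adjusted p = 0.0291), and with 1 library dropped the call held only for HFpEF 1, Control 3 and Control 4 (up to 0.0700 for the rest). Dropping both Control 4 and Control 5 ended the calls of Ccn1 (0.0800) and Sparcl1 (0.0686).

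Among 17 receptors and cell surface partners, 2 rose, 3 fell and 12 were not called (median -0.03), and 10 had an unadjusted p below 0.05. Cd36, a receptor of thrombospondin 1 and a fatty acid transporter, rose from 1108 ± 81.7 to 1382 ± 45.6 CPM (SD, n = 5; 0.32 ± 0.06, edgeR adjusted p = 0.00419). Cacna2d1, a calcium channel subunit that binds thrombospondins, rose by 0.24 ± 0.05 (edgeR adjusted p = 0.00911). Itgam, an integrin of myeloid cells, fell by 0.66, Stab1, a scavenger receptor that takes up Sparc, fell by 0.32, and Itga3, a laminin-binding integrin, fell by 0.24 on the log2 scale (edgeR adjusted p = 0.0264, 0.0336 and 0.0498). With 1 library dropped, Itgam was no longer called without Control 3 or HFpEF 3, 4 or 5, nor Stab1 without Control 3 or HFpEF 1, 3, 4 or 5, and Itga3 was called only without Control 5 or HFpEF 5. Without Control 4 and 5 together none of the 3 was called (0.0646, 0.0655 and 0.0511). Itga3 was also not called by DESeq2 (adjusted p = 0.0521) or limma-voom (0.0583). Nor did edgeR call it with the replicate number as a block (0.137) or with thinned counts (0.0752). Cd47, the other main receptor of thrombospondin 1, had a log2 fold change of 0.01 ± 0.05 and was not called.

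None of 18 matrix partners and processing enzymes was called by edgeR (median -0.03), with 1 at an unadjusted p below 0.05, 1 called by DESeq2 and 0 by limma-voom. The smallest p was that of Adamts1, a protease that cleaves thrombospondins (0.21 ± 0.07, edgeR adjusted p = 0.0856; DESeq2 0.0497). Of 10 target genes of TGF-beta, 9 were not called, 3 had an unadjusted p below 0.05, and the median log2 fold change of the 10 was 0.12. Of 16 targets of the YAP-TEAD and SRF factors, which also drive Ccn1 and Ccn2, 1 rose and 15 were not called (median -0.05), and 4 had an unadjusted p below 0.05. Fhl2, a LIM protein of the sarcomere, was the riser (0.18 ± 0.04, edgeR adjusted p = 0.0255), and its call was lost when Control 1 or HFpEF 2, 3 or 4 was dropped (up to 0.0811), or both Control 4 and 5 (0.0572).

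**Figure D5:**
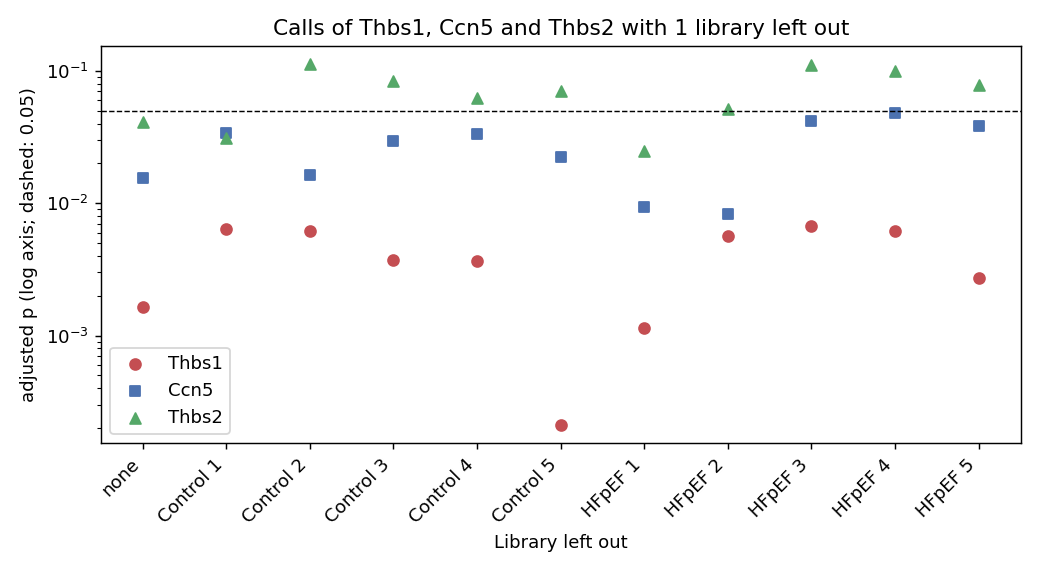
Adjusted p (log axis) of Thbs1, Ccn5 and Thbs2 with all libraries and with each library left out in turn; the dashed line is 0.05. Thbs1 (up to 0.00676) and Ccn5 (up to 0.0478) stay below the line, and Thbs2 is below it with all libraries and without Control 1 or HFpEF 1.

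Library totals ran from 31286355 to 46108710 counts, with Control 4 and Control 5 the deepest (exact permutation p = 0.222). None of 17 library measures passed adjustment (exact permutation tests; smallest adjusted p = 0.0675). The atrial and platelet sums given below each reached the smallest exact permutation p the design allows (0.00794), with no overlap between the groups. Even at that p, 2 measures alone could not pass an adjustment over 17. The lack of a pass therefore does not show that the groups were alike in these sums. The part of the 17 measures in the results was not tested. TMM factors averaged 1.04 in Control and 0.966 in HFpEF (exact permutation p = 0.0238), and mitochondrial genes took 35.7% and 37.6% of counts (exact permutation p = 0.0635). Cardiomyocyte markers summed to 61131 to 65636 CPM in Control and 64065 to 68050 CPM in HFpEF (exact permutation p = 0.0476). Most of this sum was Ttn, with means of 43800 CPM in Control and 46753 CPM in HFpEF. Of the 6 markers 3 had a log2 fold change above 0, with a median of -0.003. Myh6, the next most abundant, had means of 12167 and 11850 CPM. The 4 atrial markers summed to 37.2 to 58.3 and 15.3 to 29.3 CPM (exact permutation p = 0.00794, adjusted 0.0675), nearly all of it Nppa, a natriuretic peptide also made in ventricles (49.3 and 21.6 CPM), while Myl4 was at most at 0.769, Myl7 at 0.233 and Sln at 0.0445 CPM in the group means. Fibroblast markers, 8 in all, summed to 735 to 855 CPM in Control and 815 to 936 CPM in HFpEF (exact permutation p = 0.0952). Of these, edgeR called 0 (3 at an unadjusted p below 0.05), limma-voom 0 and DESeq2 2, Lum and Col15a1, both higher. The log2 fold change was above 0 for 6 of the 8, while Pi16 (-0.50) and Mfap5 (-0.07) were below 0. Thbs1 is also carried by platelets and made by macrophages. The 6 platelet and megakaryocyte markers summed to 5.76 to 7.64 CPM in Control and 3.47 to 5.16 CPM in HFpEF (exact permutation p = 0.00794, adjusted 0.0675), and the 7 macrophage markers to 101 to 156 and 84.7 to 111 CPM (exact permutation p = 0.0397, adjusted 0.135). Of these lists edgeR called 0 genes, with 3 of the 4 platelet markers tested and 4 of 7 macrophage markers at an unadjusted p below 0.05, limma-voom called 0 and DESeq2 called 1, Csf1r, which was lower. Smooth muscle markers summed to 117 to 173 CPM in Control and 141 to 209 CPM in HFpEF and endothelial markers to 727 to 863 and 671 to 748 CPM (exact permutation p = 0.0714 and 0.0397, adjusted 0.135 for both). The tendon marker Tnmd, of interest for Thbs4, had 0 counts in every library. Other tendon and valve markers were detected. Means in Control and HFpEF were 3.64 and 4.51 CPM for Fmod, 1.74 and 1.11 CPM for Scx and 1.15 and 1.19 CPM for Wif1. The markers called by edgeR were Lrrc15 (-0.27), Egfl7 (-0.30), Emcn (-0.27), Scx (-0.66), Nppa (-1.19) and Tnnt2 (-0.22), lower in HFpEF by these log2 fold changes. Lrrc15 is from the activated fibroblast list, where 4 of 6 tested genes were above 0 (median log2 fold change 0.04). That list summed to 66.9 to 104 CPM in Control and 89.7 to 122 CPM in HFpEF (exact permutation p = 0.0714, adjusted 0.135). Scx is from the tendon and valve list, where 3 of 4 tested genes were above 0 (median 0.14). With 1 library dropped at a time, Nppa was called in 10 of 10 fits, Egfl7 and Tnnt2 in 7, Scx in 5, Lrrc15 in 3 and Emcn in 2, and dropping both Control 4 and Control 5 ended the calls of Nppa (adjusted p = 0.0872) and Scx (0.139). Emcn was not called by limma-voom (0.0560). DESeq2 also called Ryr2 and Ttn, both higher. By Control means, the most abundant genes of the other marker lists were Gsn, Acta2, Cdh5, Rgs5, Mrc1, Gp1ba, Fmod, Upk3b, Acta1 and Hba-a2. None of these was called by edgeR. The adipocyte genes, at most at 0.183 CPM in the group means, were under the filter on low counts.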

How the data were processed

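RNA-seq of left ventricle was analysed from the table of expected counts per gene that the authors deposited, whole numbers that were not normalized. The submitters' processing notes list RSEM 1.2.15, Bowtie2 2.1.0 and mm10 without saying what each did; rounding was not needed here (0 values changed), and 92 spike-in rows, all at 0, were left out. Per the labels' protocols, ribosomal RNA was depleted. Genes passing edgeR's filterByExpr (minimum count 10) were tested with edgeR 4.0.16 in R 4.3.3 (TMM, robust quasi-likelihood, group as the only term); SE come from the F statistic. Log2 CPM of single libraries used a prior count of 2. On simulated counts with 200 changed genes, 60.2% of 1.5-fold changes (18199 genes tested) and 81.1% of 2-fold changes (18232 tested) were recovered. Of the calls made, 4.84% and 5.92% were of unchanged genes. Annotation and coding sequences are GENCODE M21; sequences were located by translating the reading frame whose length the annotation gives.

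The genes and lists were chosen with earlier results of these data known. Named were all 10 genes and, from each list, called genes or the 1 with the smallest p. Of markers, mainly called genes and the most expressed of each list in Control were named. An item that this rule names is not reported here. Alternatives were other scalings, filters and tests (DESeq2 1.42.0, limma 3.58.1), a replicate block, and leaving out each library; leaving out the 2 deepest libraries and thinning counts to the smallest total were added after seeing the data.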

Additional observations from a re-analysis of the deposited data

How the results depend on the processing

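Thbs1 was called in all 21 alternatives (log2 fold change 0.66 to 0.90), Ccn5 in 19 (-1.27 to -0.87) and Thbs2 in 9 (-0.24 to -0.18). The 2 lower genes became 1 with no low count filter, limma-voom, the replicate block or thinned counts, 0 without the 2 deepest libraries, and 1 to 2 with each library left out; the cause was not tested. Leaving out each library gave 554 (without HFpEF 3) to 1101 calls over all genes against 985, with 630 without Control 1 and 633 without HFpEF 4. It gave 2 to 5 receptors, 0 to 1 matrix partners, 1 to 3 TGF-beta targets and 0 to 2 YAP-TEAD and SRF targets. Without the 2 deepest libraries 1 further matricellular gene, 2 receptors and 2 TGF-beta targets were called. TGF-beta targets also counted 2 with RLE scaling, no filter, a minimum count of 30, DESeq2 and thinned counts. With DESeq2, 1 matrix partner and 2 YAP-TEAD and SRF targets were called. The sign of Ccn2 turned with RLE (0.0022), DESeq2 (0.0061), without the 2 deepest libraries (0.10) and over single libraries left out (-0.0760 to 0.0798); that of Tnc turned without HFpEF 2 (-0.065; -0.065 to 0.30 over all). With single libraries left out, the shift of Thbs1 against Thbs4 was 0.46 to 0.63 and against Tnc 0.50 to 0.75.

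The replicate numbers are not described as a pairing, and deviations of same-numbered libraries correlated at -0.11 to 0.06, so the numbers were not taken to pair samples. With the replicate number as a block, 744 genes were called, 657 of them among the 985; Thbs1 (0.73, adjusted p = 0.00554) and Ccn5 (-1.11, 0.0293) remained called, Thbs2 did not (-0.21, 0.0982), and YAP-TEAD and SRF targets counted 0. Tnc had 28 to 72 counts a library and Ccn5 36 to 327, and their 95% intervals of fold ran from 0.806 to 1.58 and from 0.331 to 0.654.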
